A study of Mus musculus with 6 samples.

Results

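Axon guidance molecules formed the set examined here: 66 protein-coding genes of the semaphorin, plexin, ephrin, Eph receptor, Slit, Robo, netrin and Unc5 families. They were picked out by gene name alone from the 54532 genes of the deposited expression table, with earlier results of these data known. There were 29 semaphorin and plexin genes, 22 Eph receptor and ephrin genes, and 15 genes of the Slit, Robo, netrin and Unc5 families. One of the last, Unc5cl, shares the name of the netrin receptors and is counted because of its symbol. RNA-seq libraries had been made from ventricular cardiomyocytes of 1-day-old C57BL/6J mice. In 3 libraries (shGDF11) the cells carried a short hairpin RNA, a transcript that lowers its target, directed at the secreted TGF-beta family ligand Gdf11. In the other 3 (control) they carried a control hairpin, named sh-nc or sh-Vector in the labels. Both groups received their vector at a multiplicity of infection of 200, and RNA was taken 48 h later. The treatment labels number the hairpins 1 to 3 without saying whether a number marks a sequence, a culture or a repeat, so the p-values measure the spread between these libraries, which may be technical. In bulk RNA such as this, fewer cells of a type and less RNA per cell cannot be told apart.

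Guidance molecules were named for steering growing axons, and the same ligands and receptors pattern blood vessels and the developing heart. Semaphorins are secreted or membrane-bound ligands read by plexins, and most secreted ones also need a neuropilin co-receptor. Ephrins are tethered to the cell surface and signal to Eph receptor tyrosine kinases on a neighbouring cell, with signals passing both ways. Slit proteins bind Robo receptors, and netrins bind Dcc, neogenin or Unc5 receptors. Plexin-D1, ephrin-B2, EphB4, Robo4 and Unc5b are best known from vascular endothelium, whereas Sema3c is known for its part in the septation of the cardiac outflow tract.

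Each library held 15267083 to 16152910 reads on listed genes, recovered from FPKM (fragments scaled to gene length and library size). Gdf11 itself was at 0.614, 0.601 and 0.778 FPKM in the shGDF11 libraries, against 2.76, 2.30 and 2.31 FPKM in the control libraries. With 3 libraries in each group an exact permutation test (two-sided) cannot go below 0.1, which is what it gave, and the limma adjusted p was 0.000794. Defining cardiomyocyte markers were abundant in every library: 12 genes such as Tnnt2 and Myh6 summed to 6485 to 6918 FPKM in shGDF11 and 6258 to 7788 FPKM in control libraries, and 3 of them rose and 4 fell. Markers of other cells were also present. The 10 endothelial markers summed to 52.8 to 55.8 FPKM in shGDF11 and 75.2 to 81.9 FPKM in control libraries, and 7 of them fell and none rose.

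Most guidance genes were expressed at low to moderate levels. The filter for testing, an average of 0.5 FPKM or more across the 6 libraries, was met by 50 of the 66. Levels per gene length ran from plexin-B2 at 82.3 ± 2.95 FPKM in shGDF11 and 80.2 ± 2.06 FPKM in control (mean ± SD, n = 3 each, as for all levels given in this form) down to genes with 0 reads in a library. After Plxnb2 came the netrin receptor gene Unc5b (38.3 ± 2.88 FPKM in shGDF11, 44.5 ± 4.99 FPKM in control). Below these 2 genes the order differed between the groups. In shGDF11 libraries Plxna1 (20.4 ± 1.29 FPKM) was followed by Ephb4 (15.3 ± 0.889 FPKM), Plxnd1 (14.5 ± 1.01 FPKM), Efna5 (13.7 ± 0.565 FPKM) and Ntn4 (13.5 ± 0.0283 FPKM), and the library values of Plxnd1 overlapped those of Ephb4 and Efna5. In control libraries Plxnd1 (26.8 ± 2.39 FPKM) stood above Plxna1 (20.1 ± 1.15 FPKM) and Ephb4 (17.6 ± 1.05 FPKM) in every library.

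**Figure D1:**
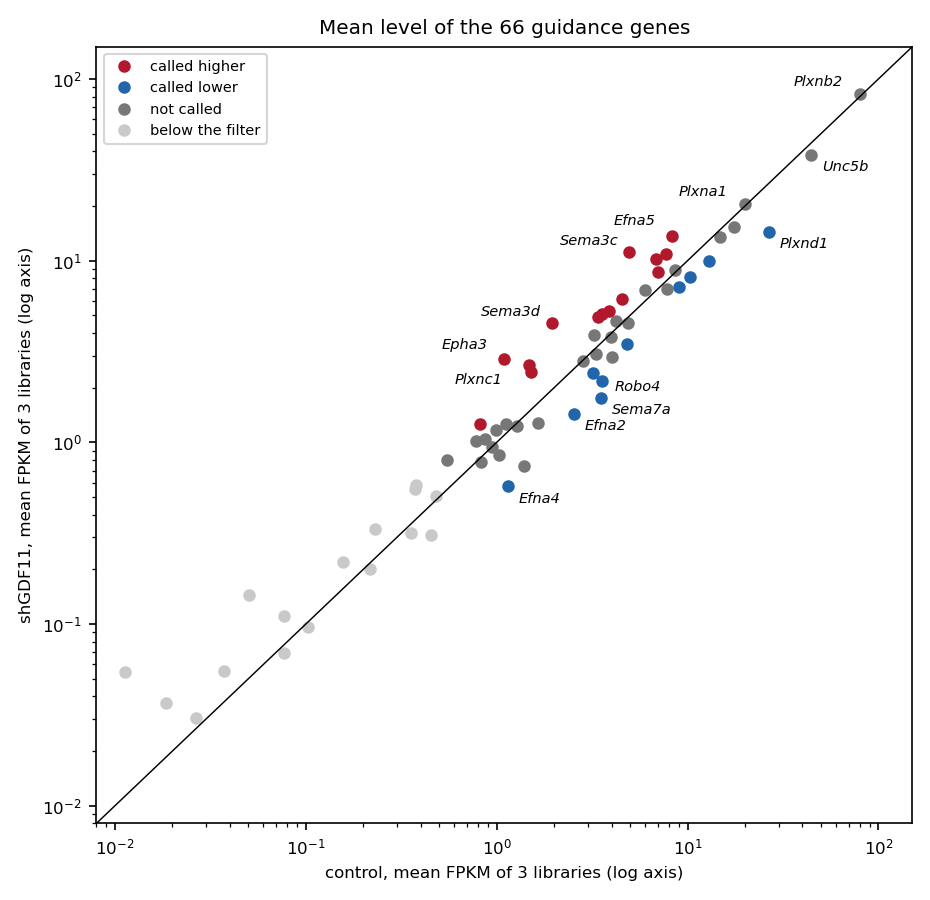
Mean FPKM of each of the 66 guidance genes over 3 shGDF11 libraries (vertical, log axis) against 3 control libraries (horizontal, log axis), with the diagonal marking equal levels. Colours give the limma call. Plxnb2 lies on the diagonal at 82.3 FPKM in shGDF11 and 80.2 FPKM in control, while Sema3c, Sema3d and Epha3 lie above it and Plxnd1, Sema7a and Efna2 below it.

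Lowering Gdf11 went with changes in 24 of the 50 guidance genes tested (48.0%), of which 14 rose and 10 fell. A gene was called at an adjusted p under 0.05 in a limma fit over all 15418 genes tested. Of all those genes 27.6% were called, 14.4% as higher and 13.1% as lower. The members' shares of 28.0% higher and 20.0% lower thus stand beside a background in which changes were common. All members are protein-coding, whereas the 15418 genes include other biotypes. Over protein-coding genes only, 4599 of 12859 tested genes were called, 2293 higher and 2306 lower, and 14 members rose and 12 fell. The share called was thus larger over protein-coding genes than over all tested genes, in both directions. Family shares below are set beside the smaller shares of all tested genes. The median log2 fold change of the tested members was 0.01, the same to 2 decimals as that of all tested genes. The summed level of all members was 365.5 to 386.9 FPKM in shGDF11 and 359.8 to 388.3 FPKM in control libraries. At least 2-fold changes in mean FPKM were few, with Sema3c, Sema3d and Epha3 higher and Sema7a lower. The 10 falls were 6 when low genes were also tested, 5 after rescaling to TPM (levels scaled to a fixed total per library) and 5 without shGDF11 replicate 1, 2 or 3, and the share of called members that were higher was 75% after rescaling and 58.3% before it. Over all called genes that share was 66.2% after rescaling and 52.4% before it. The calls of Sema3e, Sema4b, Plxna4, Epha2, Efna1 and Efna4 were those lost when low genes were also tested, and the calls of Plxna4, Epha2, Efna1, Efna4 and Efnb2 those lost after rescaling. The rises numbered 10 to 14 whichever library was left out.

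**Figure D2:**
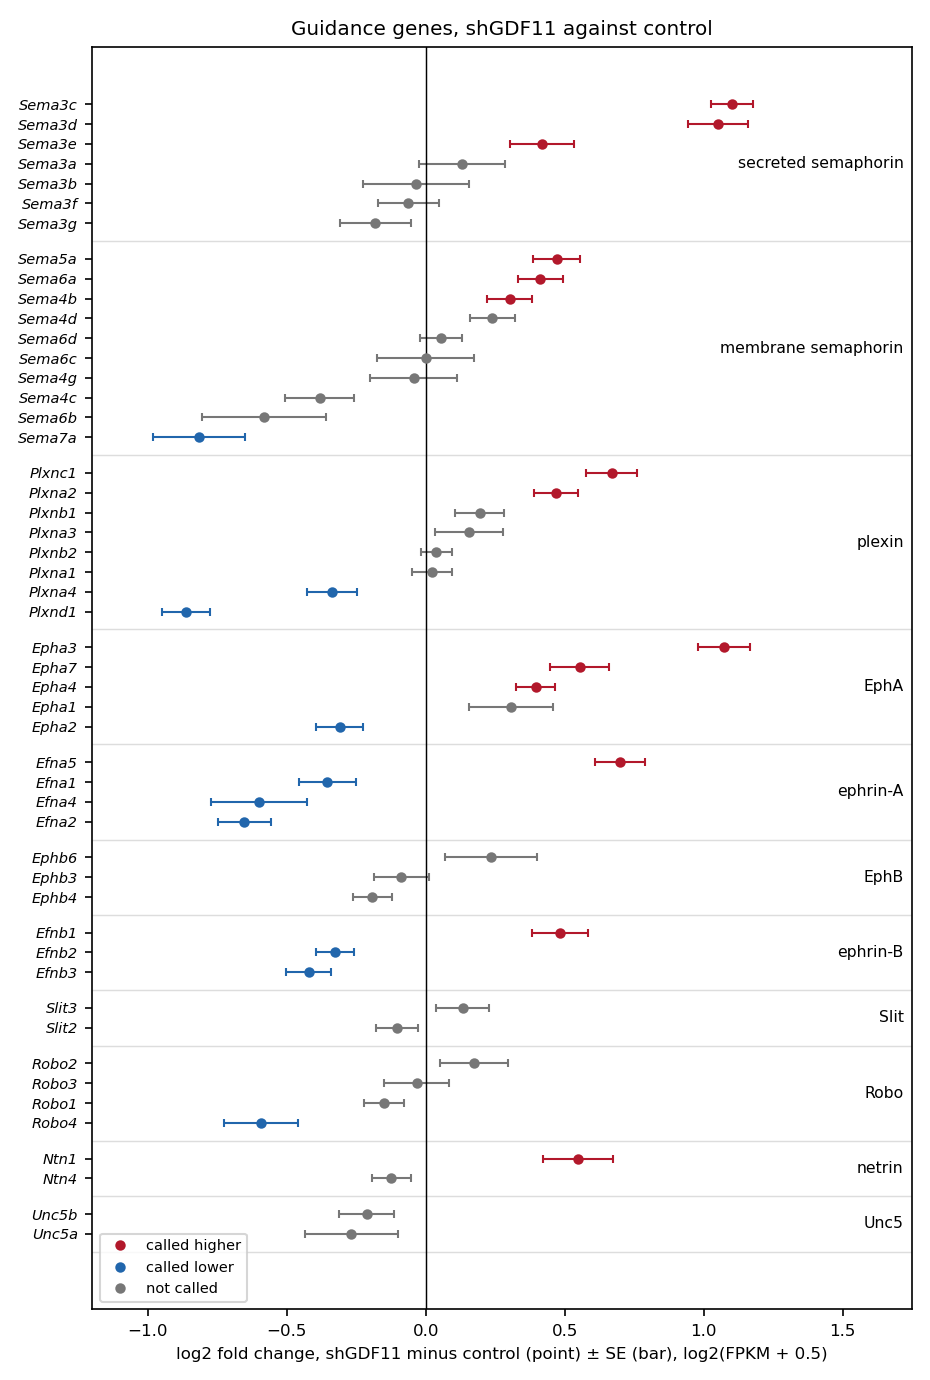
Log2 fold change of shGDF11 minus control on the log2(FPKM + 0.5) scale (points) with its SE (bars) for the 50 tested guidance genes, grouped by role. Red points were called higher, blue lower and grey not called. The highest point is Sema3c at 1.10 and the lowest is Plxnd1 at -0.86, and every group of ephrins holds points on both sides of 0.

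Among secreted semaphorins every call was upward. All 7 genes were tested, 3 rose (42.9%, against 14.4% of all tested genes) and none fell. Their summed level was 25.2 to 26.0 FPKM in shGDF11 and 16.3 to 17.1 FPKM in control libraries. Sema3c had 11.6, 11.7 and 10.3 FPKM in shGDF11 libraries, against 4.89, 4.73 and 5.20 FPKM in control libraries. Its levels did not overlap between groups and its log2 fold change was 1.10 ± 0.0751 (SE, limma adjusted p = 0.000325). Sema3d, a relative known from patterning of the pulmonary veins, had 4.47, 4.60 and 4.59 FPKM in shGDF11 libraries, against 1.61, 2.04 and 2.20 FPKM in control libraries (log2 fold change 1.05 ± 0.108 SE, limma adjusted p = 0.00105). Control replicate 1 was the lowest control for this gene, and all controls lay well below the shGDF11 libraries. Sema3e, which unlike its relatives binds plexin-D1 without a neuropilin, had 1.28, 1.26 and 1.24 FPKM in shGDF11 libraries, against 0.788, 0.833 and 0.819 FPKM in control libraries. Its groups were tight and separate, but the call (log2 fold change 0.42, limma adjusted p = 0.0344) was lost without any 1 of the 6 libraries, with limma adjusted p between 0.0603 and 0.111, and with trends of GC content and gene length removed (adjusted p = 0.13). The sum of 10 fibroblast markers was higher too, at 382.6 to 400.0 FPKM in shGDF11 and 306.3 to 362.7 FPKM in control libraries. Of the 10, only Col1a2 and Col3a1 were called higher and none lower, and Pdgfra, Tcf21 and Thy1 had means below control. The part of fibroblasts in the rises was not tested. The other 4 were not called. Sema3a, which repels axons and vessels, was at 1.26 ± 0.118 and 1.12 ± 0.265 FPKM in shGDF11 and control, and Sema3b at 2.79 ± 0.758 and 2.85 ± 0.593 FPKM. Sema3f was at 3.80 ± 0.444 and 3.98 ± 0.402 FPKM and Sema3g, known from arterial endothelium, at 0.851 ± 0.0859 and 1.03 ± 0.063 FPKM. Sema3c made up 43.6% of the summed secreted semaphorin level in shGDF11 and 29.6% in control.

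Membrane-bound semaphorins moved both ways, with 3 rises and 1 fall among 10 tested. These are 30% higher and 10% lower, against 14.4% higher and 13.1% lower of all tested genes. Sema5a, a transmembrane ligand with thrombospondin repeats, had 4.90, 5.07 and 4.67 FPKM in shGDF11 libraries, against 3.04, 3.50 and 3.61 FPKM in control libraries (log2 fold change 0.47, limma adjusted p = 0.00804). Sema6a, which binds plexin-A2 and plexin-A4, had 5.41, 5.33 and 5.16 FPKM in shGDF11 libraries, against 3.49, 4.09 and 4.02 FPKM in control libraries (log2 fold change 0.41, limma adjusted p = 0.0106). The 2 genes were higher in every shGDF11 library than in any control library. Sema4b rose least, at 8.70 ± 0.511 FPKM in shGDF11 and 6.97 ± 0.534 FPKM in control. Its limma adjusted p of 0.0309 became 0.0519 to 0.108 without shGDF11 replicate 1, 2 or 3 or control replicate 2 or 3. Sema7a, a GPI-anchored semaphorin, had 1.59, 1.89 and 1.8 FPKM in shGDF11 libraries, against 4.05, 3.98 and 2.57 FPKM in control libraries. Control replicate 3 lay nearer to the shGDF11 libraries than the other controls did, and the fall held with a log2 fold change of -0.82 ± 0.166 (SE, limma adjusted p = 0.0125). Not called were Sema4c, Sema4d, Sema4g, Sema6b, Sema6c and Sema6d. Of these Sema6d, a plexin-A1 ligand known from cardiac trabeculation in chick and the membrane semaphorin with the highest mean over the 6 libraries, was at 8.94 ± 0.249 FPKM in shGDF11 and 8.59 ± 0.688 FPKM in control, with a 95% interval of the log2 fold change from -0.12 to 0.23. In shGDF11 libraries its values overlapped those of Sema4b. Sema4d, the ligand of plexin-B1, was at 3.91 ± 0.123 and 3.24 ± 0.268 FPKM in shGDF11 and control (limma adjusted p = 0.0708). Sema4c was at 2.97 ± 0.441 and 4.01 ± 0.428 FPKM, without overlap (limma adjusted p = 0.0584). Sema6b was at 0.741 ± 0.173 and 1.39 ± 0.507 FPKM, with overlap (limma adjusted p = 0.0957). With voom on recovered reads Sema4d was called higher, and Sema4c and Sema6b lower. Over protein-coding genes only, Sema4c and Sema6b were called lower.

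The plexins, which read these ligands, moved both ways. Of 8 tested, Plxna2 and Plxnc1 rose and Plxnd1 and Plxna4 fell (50% called, against 27.6% of all tested genes). Plxnd1, the receptor for Sema3e and with neuropilins for Sema3c and Sema3d, had 13.6, 14.3 and 15.6 FPKM in shGDF11 libraries, against 28.8, 27.3 and 24.2 FPKM in control libraries. This was 54.1% of the control mean, with no overlap and a log2 fold change of -0.86 ± 0.0862 (SE, limma adjusted p = 0.000999). Its 3 secreted ligands named above moved in the opposite direction. The endothelial marker sum, at 68.4% of the control mean in shGDF11, moved with Plxnd1, and its part in that fall was not tested. Plxnc1, the receptor for Sema7a, had 2.62, 2.55 and 2.80 FPKM in shGDF11 libraries, against 1.39, 1.51 and 1.56 FPKM in control libraries (log2 fold change 0.67 ± 0.0918 SE, limma adjusted p = 0.00273). Here too receptor and ligand went opposite ways, with Sema7a lower and Plxnc1 higher. Other pairs moved together, as Plxna2 rose with Sema3c and Sema6a, and Epha3, Epha4 and Epha7 with Efna5. Plxna4 again went against its ligand Sema6a. Plxna2, a receptor for Sema3c and Sema6a, had 4.72, 5.17 and 5.40 FPKM in shGDF11 libraries, against 3.45, 3.72 and 3.47 FPKM in control libraries (log2 fold change 0.47, limma adjusted p = 0.00605). Plxna4, a receptor for Sema3a and Sema6a, averaged 2.42 ± 0.217 FPKM in shGDF11 and 3.18 ± 0.132 FPKM in control. Its limma adjusted p was 0.0317, and 0.0632 to 0.0963 without any 1 library except control replicate 1. Plxnb2, the most abundant plexin gene, did not pass the test (95% interval of the log2 fold change -0.09 to 0.17), nor did Plxna1 (-0.15 to 0.19). Plxnb2 alone made up 60.7% of the summed plexin level in shGDF11 and 56.4% in control.

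On the log2(FPKM + 0.5) scale Sema3c rose most and Plxnd1 fell most of the semaphorins and plexins, and their RefSeq promoters on GRCm38.p6 are shown for that reason. By the ratio of mean FPKM, Sema3d (233.4% of control) rose more than Sema3c (226.6%), and Sema7a (49.8%) fell more than Plxnd1 (54.1%). Each window runs from 250 bases before to 50 bases after the annotated start, 5′ to 3′ on the gene's strand. Capitals mark every match, on either strand, of CAGAC or its reverse complement GTCTG, the letters bound by SMAD3 and SMAD4 downstream of Gdf11-type ligands, and ACGTG or its reverse complement CACGT, the core of the hypoxia response element. The Sema3c window (chr5:17574566-17574865, plus strand) holds 1 ACGTG and no CAGAC, and its start lies 535 bases from the start listed in the deposited table. The Plxnd1 window (chr6:115994956-115995255, minus strand) holds neither.
Sema3c: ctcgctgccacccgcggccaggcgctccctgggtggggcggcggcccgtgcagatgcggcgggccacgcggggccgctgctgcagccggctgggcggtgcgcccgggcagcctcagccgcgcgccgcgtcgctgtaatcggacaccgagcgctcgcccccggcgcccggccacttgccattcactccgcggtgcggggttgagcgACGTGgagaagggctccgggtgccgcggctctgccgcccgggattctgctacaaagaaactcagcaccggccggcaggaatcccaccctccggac
Plxnd1: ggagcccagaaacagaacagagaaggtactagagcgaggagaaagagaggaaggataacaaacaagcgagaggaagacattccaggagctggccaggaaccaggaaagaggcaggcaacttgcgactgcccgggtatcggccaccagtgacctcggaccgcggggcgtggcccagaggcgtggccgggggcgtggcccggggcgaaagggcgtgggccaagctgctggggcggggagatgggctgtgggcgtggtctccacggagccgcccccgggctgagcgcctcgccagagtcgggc

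**Figure D3:**
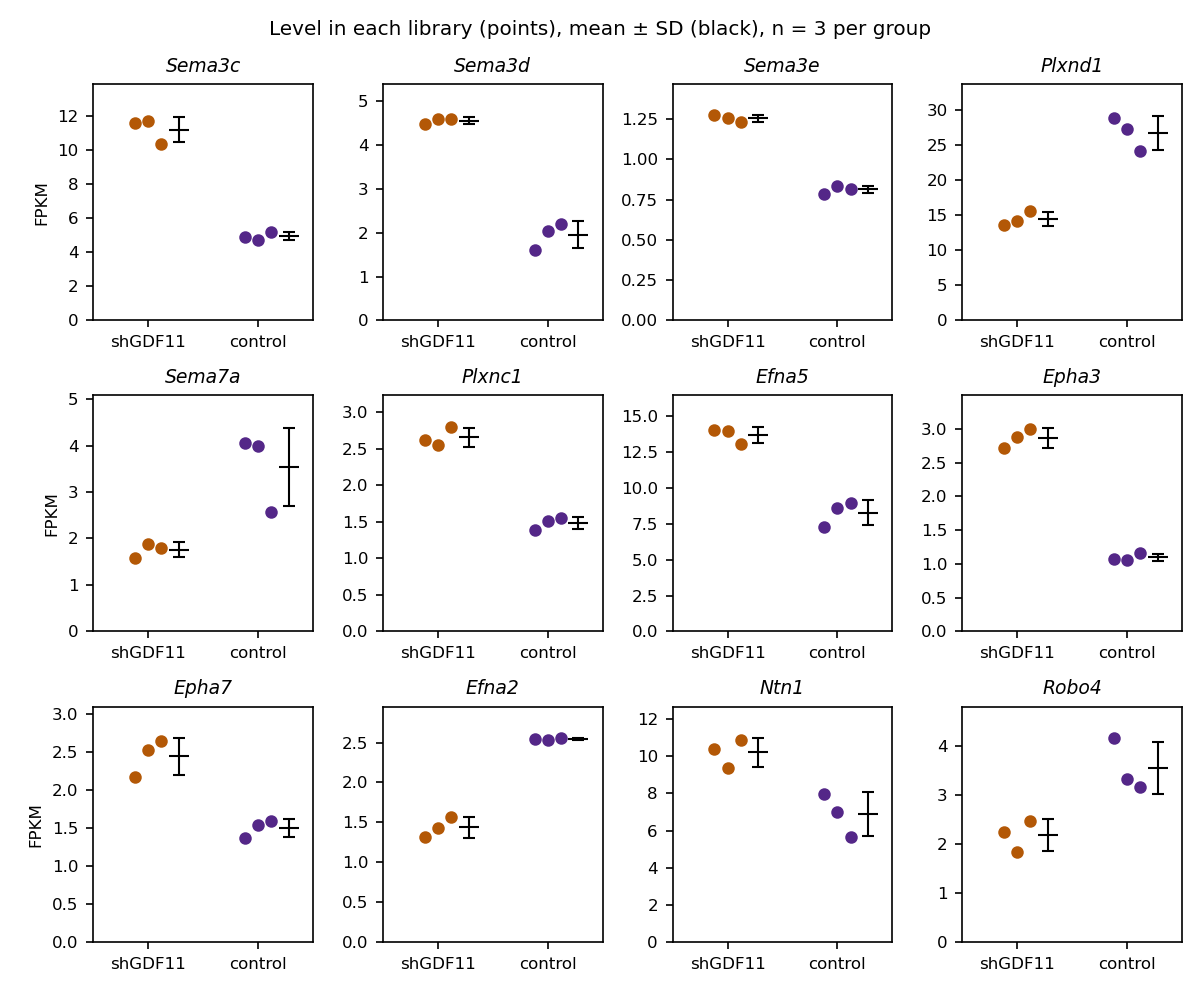
FPKM of 12 called guidance genes in each of 3 shGDF11 (left in each panel) and 3 control libraries (right), with the mean and SD in black. In all 12 panels the 2 groups are separate, for example Sema3c at 10.3 to 11.7 FPKM in shGDF11 and 4.73 to 5.20 FPKM in control. The groups were separate in all 24 called members, so this follows from showing called genes. They were also separate in 10 tested members that were not called. The share over all genes was not counted, so these counts show nothing particular to guidance genes.

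Of the EphA receptors and ephrin-A ligands expressed above the filter 8 of 9 were called (88.9%, against 27.6% of all tested genes), with 4 up and 4 down. The calls of Epha2, Efna1 and Efna4 among them were lost after rescaling to TPM and when low genes were also tested. Among the receptors Epha3, Epha4 and Epha7 rose, Epha2 fell and Epha1 was not called. Epha3, known from endocardial cushion and atrial septum formation in mice, had 2.72, 2.87 and 3.00 FPKM in shGDF11 libraries, against 1.08, 1.06 and 1.16 FPKM in control libraries. No library of either group came near the other, and the log2 fold change was 1.07 ± 0.0934 (SE, limma adjusted p = 0.000628). Epha7 had 2.18, 2.53 and 2.65 FPKM in shGDF11 libraries, against 1.38, 1.55 and 1.60 FPKM in control libraries (log2 fold change 0.55 ± 0.107 SE, limma adjusted p = 0.0102). Epha4, a receptor that binds ephrins of both classes, had 6.17, 6.23 and 6.00 FPKM in shGDF11 libraries, against 4.28, 4.80 and 4.56 FPKM in control libraries (log2 fold change 0.40 ± 0.0698 SE, limma adjusted p = 0.00734). Epha2, known from epithelium and from angiogenic endothelium, moved the other way, with 7.38, 6.64 and 7.57 FPKM in shGDF11 libraries, against 9.88, 8.87 and 8.39 FPKM in control libraries. Its call (limma adjusted p = 0.0348) was lost without any 1 library except control replicate 3, at limma adjusted p between 0.0608 and 0.121. Epha2 made up 36.6% of the summed EphA level in shGDF11 and 53.4% in control, while Epha3 made up 14.6% in shGDF11 and 6.50% in control. The 6 falls among all Eph and ephrin genes were 2, 3 and 2 without shGDF11 replicate 1, 2 or 3, 3 without control replicate 1, 3 when low genes were also tested and 2 after rescaling to TPM, while the 5 rises were 4 or 5 whichever library was left out.

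The ephrin-A ligands also differed in make-up between the groups. Efna5, which binds Epha3, Epha4 and Epha7 among others, had 14.1, 14.0 and 13.1 FPKM in shGDF11 libraries, against 7.28, 8.61 and 8.97 FPKM in control libraries. It rose by a log2 fold change of 0.70 ± 0.0884 (SE, limma adjusted p = 0.00202). Efna2 had 1.31, 1.43 and 1.57 FPKM in shGDF11 libraries, against 2.54, 2.53 and 2.56 FPKM in control libraries. All 3 shGDF11 libraries lay below the narrow range of the control libraries, and the log2 fold change was -0.65 ± 0.0948 (SE, limma adjusted p = 0.00345). Efna1, the ligand of Epha2 that is also induced by inflammatory cytokines in endothelium, had 10.2, 10.98 and 8.91 FPKM in shGDF11 libraries, against 13.5, 11.5 and 13.8 FPKM in control libraries. Its groups were separated by less than 1 FPKM, and the call (limma adjusted p = 0.0407) was lost without any 1 library except control replicate 2, at limma adjusted p between 0.0549 and 0.122. Efna4 rested on few reads, 14, 16 and 15 in shGDF11 libraries and 35, 22 and 32 in control libraries. Its call as lower (limma adjusted p = 0.0402) was likewise lost without any 1 library except control replicate 2, at limma adjusted p between 0.0971 and 0.108, and 10.5% of its exon bases lie opposite another gene. Efna5 held 52.7% of the summed ephrin-A level in shGDF11 and 32.8% in control, and Efna1 held 38.4% in shGDF11 and 51.2% in control. The sum itself was 24.3 to 27.3 FPKM in shGDF11 and 23.7 to 26.9 FPKM in control libraries, so the make-up differed while the totals overlapped.

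The promoters of Epha3 and Efna2 are shown as those of the largest rise and fall among Eph and ephrin genes on the log2(FPKM + 0.5) scale, with capitals as above. By the ratio of mean FPKM the sparsely read Efna4 (50.1% of control) fell more than Efna2 (56.6%). The Epha3 window (chr16:63864126-63864425, minus strand) holds 2 CAGAC matches, with first bases 19 bases before and 18 bases after the start. The Efna2 window (chr10:80179232-80179531, plus strand) holds 2 GTCTG matches, 112 and 102 bases before the start. CAGAC on either strand occurs in 49.6% of the 32851 RefSeq promoter windows of this length, so a match is common. It occurred in 6 of 12 risen and 5 of 8 fallen members that had a window. ACGTG or its reverse complement occurs in 19.6% of all windows, and was present in 4 of 12 risen and 0 of 8 fallen members.
Epha3: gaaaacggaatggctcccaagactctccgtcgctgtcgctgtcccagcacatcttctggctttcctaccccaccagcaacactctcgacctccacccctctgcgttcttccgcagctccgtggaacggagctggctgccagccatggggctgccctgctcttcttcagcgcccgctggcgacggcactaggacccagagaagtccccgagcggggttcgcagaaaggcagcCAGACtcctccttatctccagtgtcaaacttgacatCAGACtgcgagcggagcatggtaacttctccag
Efna2: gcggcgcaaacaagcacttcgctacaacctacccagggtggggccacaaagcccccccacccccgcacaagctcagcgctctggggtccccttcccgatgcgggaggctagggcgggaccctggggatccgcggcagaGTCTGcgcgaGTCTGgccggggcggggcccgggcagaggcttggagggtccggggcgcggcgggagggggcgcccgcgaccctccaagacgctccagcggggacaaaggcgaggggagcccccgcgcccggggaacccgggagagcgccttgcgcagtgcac

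All 3 ephrin-B ligands passed the test, and none of the 3 EphB receptors tested did. Together this is 50% called, against 27.6% of all tested genes. Efnb1 had 10.9, 10.2 and 11.6 FPKM in shGDF11 libraries, against 8.68, 7.68 and 6.71 FPKM in control libraries (log2 fold change 0.48 ± 0.101 SE, limma adjusted p = 0.014, and 0.0562 without shGDF11 replicate 3). Efnb2, the arterial ephrin, had 7.79, 8.80 and 7.86 FPKM in shGDF11 libraries, against 10.4, 10.4 and 10.2 FPKM in control libraries (log2 fold change -0.33 ± 0.0685 SE, limma adjusted p = 0.0139). The call of Efnb2 was lost without shGDF11 replicate 1 (limma adjusted p = 0.0556), without shGDF11 replicate 3 (0.0581) and after rescaling to TPM (0.0759). Efnb3 had 3.29, 3.53 and 3.58 FPKM in shGDF11 libraries, against 5.16, 4.83 and 4.47 FPKM in control libraries (log2 fold change -0.42 ± 0.0806 SE, limma adjusted p = 0.00993). Each of the 3 ligands separated the groups, 1 upward and 2 downward. Ephb4, the venous receptor of ephrin-B2 and the most abundant EphB gene, had 14.8, 14.8 and 16.4 FPKM in shGDF11 libraries, against 18.8, 16.8 and 17.2 FPKM in control libraries. It was not called (log2 fold change -0.19, 95% interval -0.36 to -0.02, limma adjusted p = 0.0878). Ephb3 was at 4.54 ± 0.455 and 4.86 ± 0.433 FPKM in shGDF11 and control, and the kinase-inactive Ephb6 at 1.02 ± 0.244 and 0.784 ± 0.117 FPKM, neither of them called.

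Of the Slit and Robo genes tested, Robo4 alone was called. With netrin and Unc5 genes included, 2 of 10 tested genes were called (20%), below the 27.6% of all tested genes. Neither tested Slit gene was called: Slit2 was at 3.06 ± 0.084 and 3.33 ± 0.163 FPKM in shGDF11 and control (95% interval of the log2 fold change -0.28 to 0.08) and Slit3 at 4.66 ± 0.155 and 4.23 ± 0.528 FPKM (-0.09 to 0.36). Of the receptors, Robo1 was at 6.96 ± 0.465 FPKM in shGDF11 and 7.77 ± 0.254 FPKM in control. Robo2 was at 1.05 ± 0.0694 FPKM in shGDF11 and 0.87 ± 0.0313 FPKM in control, and Robo3 at 1.24 ± 0.124 and 1.28 ± 0.086 FPKM in shGDF11 and control, and none of the 3 was called. With trends of GC content and gene length removed, Robo1 and Slit2 were called as lower. Robo4, the endothelial member, had 2.25, 1.84 and 2.48 FPKM in shGDF11 libraries, against 4.17, 3.34 and 3.18 FPKM in control libraries. It fell to 61.5% of the control mean (log2 fold change -0.59 ± 0.133 SE, limma adjusted p = 0.0172, and 0.0584 without shGDF11 replicate 2). The endothelial markers Cdh5, Tie1 and Vwf fell as well, Cdh5 to 14.0 FPKM in shGDF11, against 23.9 FPKM in control, while Tek and Cldn5 were not called. Whether these falls and that of Robo4 share a source was not tested. Robo4 and Robo3 lie 554 bases apart on chromosome 9, on opposite strands, and Robo3 was not called.

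Netrin-1 rose, and the 2 Unc5 genes tested, Unc5a and Unc5b, were not called. Unc5c, Unc5d and Unc5cl were below the filter and not tested. Unc5a was at 1.27 ± 0.269 and 1.64 ± 0.335 FPKM in shGDF11 and control (limma adjusted p = 0.277). Ntn1 had 10.4, 9.34 and 10.9 FPKM in shGDF11 libraries, against 7.98, 6.99 and 5.63 FPKM in control libraries (log2 fold change 0.55 ± 0.126 SE, limma adjusted p = 0.0188). The call was lost without shGDF11 replicate 1 (limma adjusted p = 0.0629) or shGDF11 replicate 3 (0.0694). Ntn4, a laminin-like netrin of basement membranes, had 13.6, 13.5 and 13.5 FPKM in shGDF11 libraries, against 15.3, 13.6 and 15.7 FPKM in control libraries, and was not called (limma adjusted p = 0.228). Unc5b, a repulsive netrin receptor, had 38.0, 35.6 and 41.3 FPKM in shGDF11 libraries, against 48.9, 45.6 and 39.1 FPKM in control libraries. Its groups overlapped, because control replicate 3 was below shGDF11 replicate 3 (log2 fold change -0.21, 95% interval -0.44 to 0.02, limma adjusted p = 0.149). Without control replicate 3 its limma adjusted p was 0.0419.

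Co-receptors and signalling partners of these families, a list of 69 symbols of which 68 matched, gave 15 rises and 8 falls among 56 tested, or 26.8% higher and 14.3% lower, against 14.4% higher and 13.1% lower of all tested genes, so the share of falls was near the background. The neuropilin gene Nrp1, a co-receptor for Sema3 ligands and for VEGF, had 19.3, 20.4 and 20.9 FPKM in shGDF11 libraries, against 13.0, 14.4 and 13.6 FPKM in control libraries (log2 fold change 0.55 ± 0.0647 SE, limma adjusted p = 0.0016). Nrp2 was at 5.92 ± 0.641 and 6.14 ± 0.106 FPKM in shGDF11 and control and was not called. Neo1 (neogenin), a netrin and RGM receptor, rose to 26.7 ± 0.998 FPKM in shGDF11, against 16.6 ± 1.26 FPKM in control, whereas Dcc, the attractive netrin receptor, had only 9 to 20 reads in shGDF11 and 6 to 11 reads in control libraries and was not tested. Flrt3, an Unc5-binding adhesion protein, rose to 4.46 ± 0.574 FPKM in shGDF11, against 1.51 ± 0.123 FPKM in control. Dpysl2, the CRMP2 protein through which Sema3a acts on microtubules, and Rasa1, a Ras GTPase-activating protein recruited by Eph receptors, rose by log2 fold changes of 0.66 and 0.79. The falls with the smallest p were those of Mmp9, a matrix metalloproteinase, Rnd1, Adam10 and Met. Rnd1, a small GTPase that binds plexins, was at 4.32 ± 0.26 FPKM in shGDF11 and 8.05 ± 1.88 FPKM in control. Adam10, the protease that sheds ephrins, was at 31.5 ± 1.79 and 40.3 ± 1.63 FPKM in shGDF11 and control, and its fall was not called after rescaling to TPM (limma adjusted p = 0.0725). Met, the HGF receptor that pairs with plexin-B proteins, was at 1.96 ± 0.053 FPKM in shGDF11 and 3.33 ± 0.579 FPKM in control, and Mmp9 at 1.99 ± 0.202 FPKM in shGDF11 and 3.29 ± 0.167 FPKM in control. After rescaling to TPM, 17 partner genes rose and 4 fell, while 2577 of all tested genes rose and 1315 fell. Over protein-coding genes only, 16 partner genes rose and 9 fell, while 2293 of the 12859 genes tested rose and 2306 fell. Of the partner genes 4 fell without shGDF11 replicate 1, 2 or 3 and 5 without control replicate 2.

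**Figure D4:**
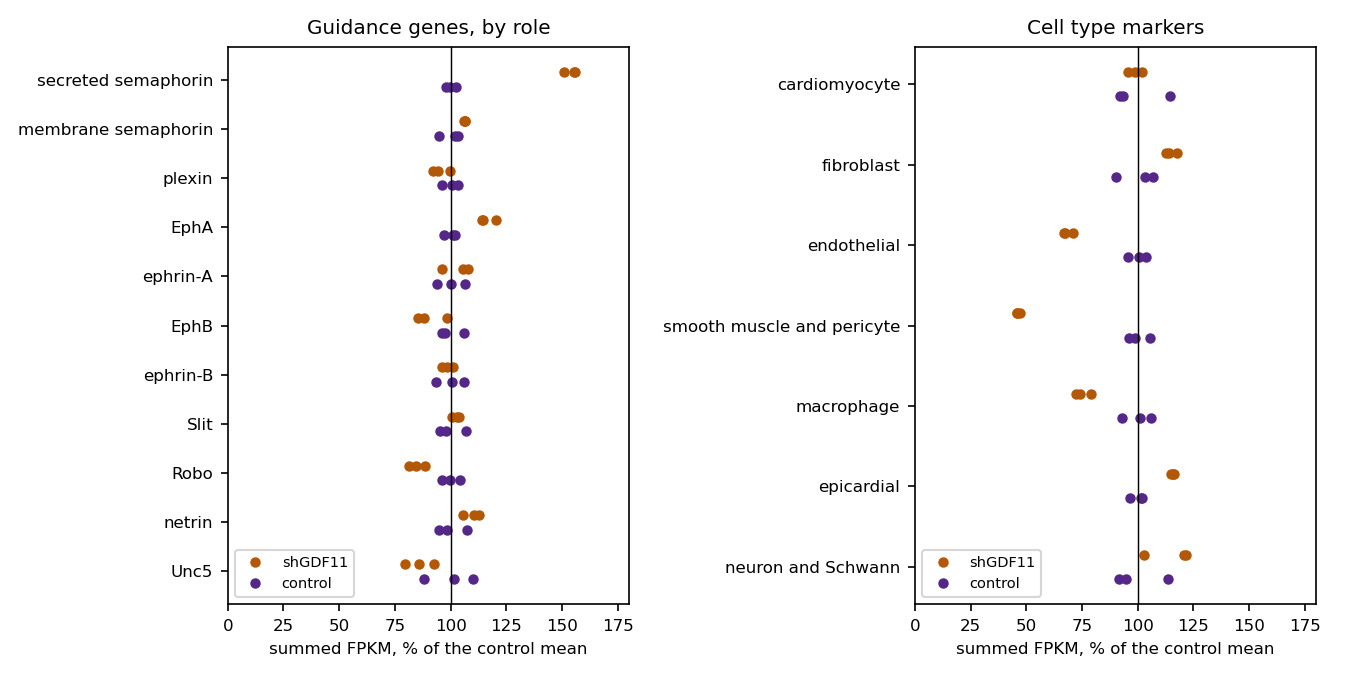
Summed FPKM of the guidance genes by role (left panel) and of cell type marker lists (right panel) in each shGDF11 (orange) and control (purple) library, as a percent of the control mean. Secreted semaphorins (25.2 to 26.0 FPKM in shGDF11, 16.3 to 17.1 FPKM in control) and EphA receptors lie to the right of 100 in shGDF11 libraries, and endothelial, smooth muscle and macrophage markers to the left.

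Marker sums of other cells moved beside these genes. The 10 smooth muscle and pericyte markers summed to 46.1% of the control mean in shGDF11, with 5 falls and no rise, and Acta2 held most of that sum (370.3 ± 3.57 FPKM in shGDF11, 992.9 ± 34.2 FPKM in control). The 10 macrophage markers summed to 75.0% of the control mean, with 4 falls and no rise. Fibroblast markers summed to 114.8% of the control mean (2 rises, no fall) and epicardial markers to 115.7% (3 rises, 1 fall). Neuron and Schwann cell markers, of which 2 of 10 passed the filter, summed to 40.8 to 48.4 FPKM in shGDF11 and 36.4 to 45.1 FPKM in control libraries, with 1 rise (S100b). Tubb3, which was not called, held most of that sum (38.9 ± 3.99 FPKM in shGDF11, 36.3 ± 4.38 FPKM in control). No marker in these lists was at 0 in all libraries, and the part of cell make-up in the guidance genes' changes was not tested.

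The 16 members below the filter held 0 to 138 reads per library and were not tested. They were Epha5, Epha6, Epha8, Epha10, Ephb1, Ephb2, Efna3, Sema4a, Sema4f, Sema5b, Plxnb3, Slit1, Ntn5, Unc5c, Unc5d and Unc5cl, many of them known mainly from neural tissue. Ephb2, Sema4a and Slit1 had a mean of at least 0.5 FPKM in shGDF11 only, Ephb2 with 117, 105 and 138 reads in shGDF11 libraries, against 65, 76 and 91 reads in control libraries. None of the 50 tested members passed the filter through 1 group alone.

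With all families pooled, the risen members had a longer median length and a lower median GC content than the fallen ones. The 14 that rose had a median listed gene length of 8472 bases and a median transcript GC content of 48.8%, against 3986 bases and 56.3% for the 10 that fell. The 26 tested but not called had 6162 bases and 56.7%. Length and GC were not compared within a family. With smooth trends in gene length and GC content removed from each library, 13 of the 14 rises and 8 of the 10 falls kept their call, and Plxnb1, Robo1, Sema4d and Slit2, named after their values were seen, were newly called. On GRCm38 Sema3d (12383385 to 12588948), Sema3a (13125414 to 13602565), Sema3e (14025276 to 14256689) and Sema3c (17574281 to 17730268) all lie on the plus strand of chromosome 5. Of these Sema3c, Sema3d and Sema3e rose, while Sema3a, between Sema3d and Sema3e, did not pass the test. Sema3c is not adjacent to the rest: it lies 3.318 Mb from Sema3e, with 16 protein-coding genes between them. Between Sema3a and Sema3e lies 1 protein-coding gene. Efna1, Efna3 and Efna4 lie together on chromosome 3 with no other protein-coding gene between them. Both members tested there were called lower, Efna3 being below the filter. Both calls were lost after rescaling to TPM, when low genes were also tested, and without any 1 library except control replicate 2. Efna5, the risen ephrin-A gene, lies apart on chromosome 17.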

How the data were processed

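The authors deposited one table of FPKM values for 54532 Ensembl genes in 6 libraries, with each gene's position, length in bases and biotype. Tools named in the submitters' processing notes are CASAVA 1.8, HISAT2 2.0.5 and featureCounts 1.5.0-p3 and the build GRCm38 (mm10), with no role or order. Neither the annotation release nor the use of strand is stated by the labels or the table's header, so reads of genes overlapping on opposite strands cannot be told apart. All 66 members had the same coordinates in GENCODE M21.

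Reads were recovered as FPKM multiplied by gene length over the value of 1 read in each library (100% of positive values came within 0.05 of a whole read). Depth of 15267083 to 16152910 reads puts 3 reads of a 1 kb gene at 0.18 to 0.191 FPKM.

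Genes averaging 0.5 FPKM or more were tested on log2(FPKM + 0.5), which understates changes of low genes, with limma 3.58.1 (eBayes with trend, two-sided) in R 4.3.3, adjusted by Benjamini-Hochberg over all 15418 genes. Samples were grouped by treatment label.

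Members, partner list and tests were chosen with earlier results of these data known. The text names called members, the most abundant member of each role, Nrp1, Nrp2, Dcc, Neo1, and the 4 partner genes with the smallest p each way; other members are named to complete their role group. Alternatives were the pseudocount, filter, scaling, variance model, library weights, voom on recovered reads, protein-coding genes only, a replicate block and leaving out each library. Removal of GC and length trends was added after seeing the data. Promoter windows are RefSeq's on GRCm38.p6, matched by symbol for 57 of 66 members, 1 window per gene.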

Additional observations from a re-analysis of the deposited data

How the results depend on the processing

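No called member changed sign under any of the 19 alternatives, and 14 of the 24 kept their call in every alternative that tested them. The other 10 lost it in at least 1: Sema3e, Sema4b, Plxna4, Epha2, Efna1, Efna4, Efnb1, Efnb2, Ntn1 and Robo4. The 10 falls among all members were 6 with no filter on low values, 4 at a mean of at least 5 FPKM, 5 after rescaling to TPM and 6 when replicate number was added as a block, and 5 to 9 when 1 library was left out. The 14 rises were 6 at a mean of at least 5 FPKM, where only 18 members were tested. For semaphorins and plexins that filter gave 2 rises and 1 fall, and falls were 5 with voom and 5 over protein-coding genes only. For Eph and ephrin genes it gave 3 rises and 3 falls, and falls were 3 with no filter, 2 after rescaling to TPM, 3 with the replicate block and 2 to 5 when 1 library was left out. For Slit, Robo, netrin and Unc5 genes falls were 0 at that filter, 3 with GC and length trends removed and 0 to 2 when 1 library was left out, and rises 0 to 1. Partner genes that fell were 5 at a mean of at least 5 FPKM, 4 after rescaling to TPM and 4 with the replicate block, and 4 to 9 when 1 library was left out. The members' median log2 fold change was 0.0975 after rescaling to TPM, against 0.0943 for all tested genes there, and lay between -0.0225 and 0.0657 when 1 library was left out. Genes called in all were 2346 to 4238 when 1 library was left out, the lowest being 2722, 2346 and 2535 without shGDF11 replicate 1, 2 and 3.

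Labels number the libraries 1 to 3 in each group without saying what a number shares. Deviations of same-numbered libraries correlated at 0.0153, 0.0149 and -0.0521, so the numbers were not taken as pairs. With the replicate block 3223 genes were called, against 4253 without it. Members under 0.5 FPKM, at 0 to 138 reads, are limited by depth.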
